A study of Mus musculus with 3 samples.

Results

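The genes described here are autosomal imprinted genes, 44 in all, chosen by symbol from the literature, of which 35 had a probe set annotated with that symbol alone among the 19938 genes named on the arrays. The 35 comprised 16 of 19 maternally expressed and 19 of 24 paternally expressed members. Mirg, Snrpn, Ube3a and Gnas (which makes both maternal and paternal transcripts) were annotated only for probe sets carrying several symbols, and H19, Kcnq1ot1, Zrsr1, Nespas and Peg13 were listed for no probe set with a symbol, so these 9 were not analysed here. Each measured member had 1 probe set of its symbol alone. Rian was also annotated among the symbols of a probe set with several, which was not used.

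The samples were ureteric bud cells, labelled ureteric tip, from CD-1 mouse embryos carrying the transgene Tg(Hoxb7-EGFP)33Cos at 10.5 days post coitum (Theiler stage 18), sex unknown. In this transgene Hoxb7 regulatory DNA directs EGFP to the nephric duct and to its outgrowth, the ureteric bud, and fluorescent cells were sorted after microdissection and trypsin treatment. Each of the 3 arrays held RNA from 1 bud, not pooled and amplified in 1 round, and all 3 form 1 group without a control. The questions open to these arrays were therefore which imprinted genes had signal in the bud and how the buds differed.

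Imprinted genes are transcribed mainly from the allele inherited from 1 parent, because DNA methylation laid down in egg or sperm differs between the alleles at a control region that governs a cluster of neighbouring genes. Many act on fetal growth, with paternally expressed genes such as Igf2 promoting it and maternally expressed ones such as Cdkn1c, Phlda2 and Grb10 restraining it. The zinc finger protein ZFP57 binds the methylated hexamer TGCCGC at control regions and keeps the mark through early development. The arrays measure total transcript and do not read alleles, so the parental classes below are those known from the literature in mouse and not a result of these samples, and for several genes (Grb10, Ube3a, Copg2, Ddc, Calcr, Dcn) imprinting is known to depend on tissue.

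Promoter windows of 6 members are shown because they belong to 3 sets the results turn on, namely neighbours that share a promoter but not a signal (Peg3 and Usp29), an overlapping sense and antisense pair whose probe sets were both above background (Igf2r and Airn), and genes whose windows hold the ZFP57 hexamer (Mest and Plagl1). Each runs 5′ to 3′ on its gene's strand from 250 bases before to 50 bases after the start, from RefSeq on build GRCm38.p6, with every CpG in capitals. The windows are chr7:6730370-6730669 on the minus strand for Peg3, chr7:6730333-6730632 on the plus strand for Usp29, chr6:30737800-30738099 on the plus strand for Mest, chr10:13090582-13090881 on the plus strand for Plagl1, chr17:12769657-12769956 on the minus strand for Igf2r and chr17:12741061-12741360 on the plus strand for Airn.
Peg3: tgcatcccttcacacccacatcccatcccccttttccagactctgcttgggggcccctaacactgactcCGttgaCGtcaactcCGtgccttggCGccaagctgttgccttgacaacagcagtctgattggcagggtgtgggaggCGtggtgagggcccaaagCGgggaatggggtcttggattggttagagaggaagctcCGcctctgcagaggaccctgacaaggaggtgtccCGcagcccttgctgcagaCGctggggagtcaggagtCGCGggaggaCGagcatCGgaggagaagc
Usp29: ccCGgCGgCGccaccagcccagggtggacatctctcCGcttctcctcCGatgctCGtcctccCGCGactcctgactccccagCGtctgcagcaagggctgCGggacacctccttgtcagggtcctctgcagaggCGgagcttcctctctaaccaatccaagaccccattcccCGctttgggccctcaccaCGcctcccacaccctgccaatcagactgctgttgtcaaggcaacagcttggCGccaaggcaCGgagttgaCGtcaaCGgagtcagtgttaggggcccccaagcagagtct
Mest: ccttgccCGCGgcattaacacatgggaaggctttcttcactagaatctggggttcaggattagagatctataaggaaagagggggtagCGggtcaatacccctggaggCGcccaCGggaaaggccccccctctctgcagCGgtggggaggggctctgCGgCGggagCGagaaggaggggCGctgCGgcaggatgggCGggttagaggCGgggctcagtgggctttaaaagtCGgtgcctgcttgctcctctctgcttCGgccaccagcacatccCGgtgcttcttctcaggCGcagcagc
Plagl1: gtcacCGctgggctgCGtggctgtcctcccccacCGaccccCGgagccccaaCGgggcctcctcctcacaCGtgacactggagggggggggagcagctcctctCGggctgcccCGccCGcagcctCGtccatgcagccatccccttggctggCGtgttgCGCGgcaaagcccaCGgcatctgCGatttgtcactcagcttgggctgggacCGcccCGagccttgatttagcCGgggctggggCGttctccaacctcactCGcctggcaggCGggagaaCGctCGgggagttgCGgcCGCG
Igf2r: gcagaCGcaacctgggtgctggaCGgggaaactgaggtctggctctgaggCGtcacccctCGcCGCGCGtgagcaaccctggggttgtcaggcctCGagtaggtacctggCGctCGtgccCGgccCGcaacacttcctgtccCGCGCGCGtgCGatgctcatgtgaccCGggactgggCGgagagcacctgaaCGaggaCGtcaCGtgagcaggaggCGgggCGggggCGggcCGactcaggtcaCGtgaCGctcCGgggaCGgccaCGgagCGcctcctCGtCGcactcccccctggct
Airn: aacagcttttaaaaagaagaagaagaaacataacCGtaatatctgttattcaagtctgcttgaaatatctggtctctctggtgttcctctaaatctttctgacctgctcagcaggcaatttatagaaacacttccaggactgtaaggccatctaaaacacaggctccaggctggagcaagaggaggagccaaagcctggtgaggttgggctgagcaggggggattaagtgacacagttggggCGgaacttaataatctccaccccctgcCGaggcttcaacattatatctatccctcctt

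The Peg3 and Usp29 windows share 263 bases read on opposite strands, since the genes are transcribed away from each other. Peg3 has 13 CpGs in its window, Usp29 17, Mest 17, Plagl1 26, Igf2r 34 and Airn 3. The hexamer TGCCGC, searched as TGCCGC and its reverse complement GCGGCA, was found 2 times in the Mest window, 1 time in that of Plagl1 and not in the other 4.

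Values are log2 signals as deposited. A gene was called above background when its mean over the arrays exceeded the array's 95th percentile of 1035 olfactory receptor probe sets (5.40, 5.45 and 5.41 log2 on arrays 1, 2 and 3) in a one-sided limma test with Benjamini-Hochberg adjustment over all 19938 genes at 0.05. Array medians were 5.47, 5.50 and 5.48 log2. With 3 arrays, the precision of each mean is limited by their number. Of the members, 14 had the same value on all 3 arrays (40%, against 51.7% of all genes), 8 had 1 value on a pair of arrays and another on the remaining one, and 13 had 3 different values. A value repeated across arrays carries no measured spread between buds, so no SD is given for the 14, and the p-values of these genes hold no spread between buds. All 12 ureteric bud markers were above background, whereas of 13 markers of metanephric mesenchyme and stroma 4 were (Col1a1, Col1a2, Col3a1 and Twist1) and Six2, Gdnf, Eya1, Osr1, Foxd1, Tcf21, Pdgfra, Pdgfrb and Meox1 were not. Endothelial markers passed in 5 of 8, erythroid markers in 3 of 5 measured and leukocyte markers in 2 of 5, beside 53.0% of all named genes.

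Signal above background was found for 22 of 35 measured imprinted genes (62.9%), a share near that of all named genes (53.0%). Maternally expressed members gave 10 of 16 (62.5%) and paternally expressed members 12 of 19 (63.2%). Over all 35 measured members the median of the mean minus background was 1.37 log2 (0.81 for maternally and 2.40 for paternally expressed ones), against 0.22 log2 over all genes. A signal above 8 log2 on every array, a line drawn after the values were seen, was found for 12 of 35 members (34.3%), against 11.0% of all genes. These were Igf2, Peg3, Peg10, Mest, Nnat, Ndn, Plagl1, Impact and Slc38a4 among 19 paternally expressed members, and Igf2r, Asb4 and Grb10 among 16 maternally expressed ones.

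**Figure D1:**
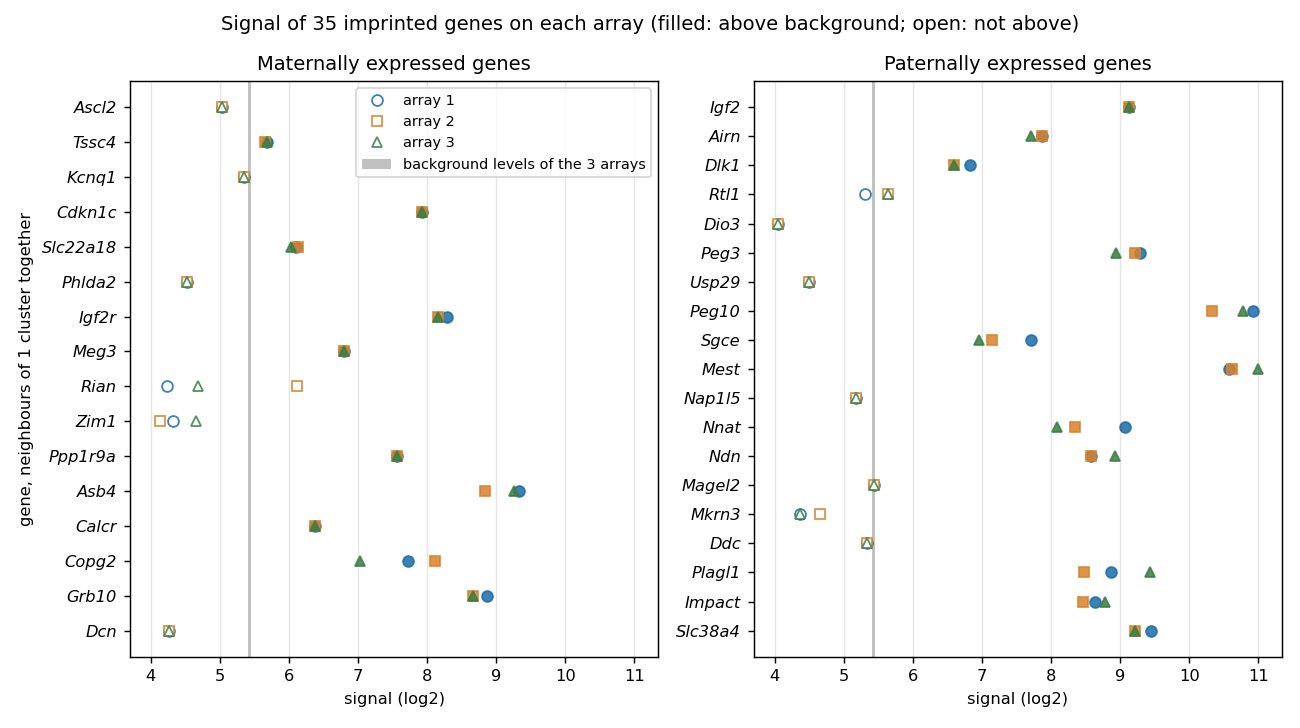
Signal (log2, horizontal axis) of the 35 measured imprinted genes on each of the 3 arrays, maternally expressed genes on the left and paternally expressed ones on the right, with filled symbols for genes above background and the grey band at the 3 background levels (5.40 to 5.45 log2). The 22 filled genes have means from 5.67 to 10.73 log2 and the 13 open ones from 4.04 to 5.53 log2, and Rian is the open gene with 1 array, array 2, far to the right of the band.

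Among growth factors and their receptors, Igf2, the insulin-like growth factor that drives fetal growth, had a signal of 9.12 log2 on all 3 arrays, 3.71 log2 above background (limma, adjusted p = 7.37e-07). Igf2r, the receptor that takes IGF2 to lysosomes for degradation, had 8.28, 8.15 and 8.15 log2 on arrays 1, 2 and 3 (8.19 ± 0.08, SD, n = 3), 2.77 log2 above background (limma, adjusted p = 4.03e-06). Both genes were thus well above background in all 3 buds. Dlk1, a membrane and secreted protein related to the Notch ligands, had 6.83, 6.60 and 6.60 log2 (6.68 ± 0.13, SD, n = 3), 1.26 log2 above background (limma, adjusted p = 0.000126). Calcr, the calcitonin receptor, was at 6.37 log2 on all 3 arrays and 0.95 log2 above background. The calls of Dlk1 and Calcr were lost against keratin-associated proteins and beta-defensins, the highest background level used, where their means minus background were −0.19 and −0.50 log2.

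The inhibitors of growth were divided. Cdkn1c, which encodes the cyclin-dependent kinase inhibitor p57, was at 7.93 log2 on all 3 arrays, 2.51 log2 above background (limma, adjusted p = 1.13e-06). Grb10, an adaptor that dampens insulin and IGF receptor signalling, had 8.87, 8.66 and 8.66 log2 (8.73 ± 0.12, SD, n = 3), 3.31 log2 above background (limma, adjusted p = 5.87e-06). Phlda2, a pleckstrin homology protein that limits placental growth, was at 4.53 log2 on all 3 arrays and not above background. Cdkn1c and Phlda2 are close neighbours in the Kcnq1 cluster and are silenced together on the paternal chromosome in placenta, so this cluster held members on both sides of the background.

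In the rest of the Kcnq1 cluster, Slc22a18, an organic cation transporter, had 6.10, 6.13 and 6.03 log2 (6.09 ± 0.05, SD, n = 3) and was 0.67 log2 above background (limma, adjusted p = 3.88e-05). Tssc4 had 5.68, 5.65 and 5.68 log2 (5.67 ± 0.01, SD, n = 3), 0.25 log2 above background (limma, adjusted p = 0.00117). These calls were close to the line. At the 99th percentile of olfactory receptors the mean minus background was 0.02 log2 for Slc22a18 and −0.39 log2 for Tssc4, both without a call. Tssc4 also lost its call without array 1 (limma, adjusted p = 0.0691) and without array 3 (limma, adjusted p = 0.0619). Its mean was 0.24 log2 above background in each. In both refits limma gave all genes nearly 1 spread, pooled over genes, so the losses cannot be read as an effect of the array left out. Kcnq1, a potassium channel subunit, was at 5.35 log2 and Ascl2, a basic helix-loop-helix factor of the placental trophoblast, at 5.03 log2, each the same on all 3 arrays and neither above background. Kcnq1 passed at the 90th percentile of olfactory receptors (limma, adjusted p = 5.1e-05) and against vomeronasal receptors (limma with the spread pooled over genes, adjusted p = 2.69e-05). Of the 6 measured members of this cluster 3 were above background, beside 53.0% of all named genes.

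Non-coding RNAs gave 2 of 3 measured members above background, beside 53.0% of all named genes. Airn, the paternal RNA that runs antisense through Igf2r and represses Igf2r in cis, had 7.87, 7.87 and 7.71 log2 (7.82 ± 0.09, SD, n = 3), 2.40 log2 above background (limma, adjusted p = 4.39e-06). In the RefSeq gene table Airn overlaps Igf2r, and no source used here gives the strand that each probe set reads, so the signals of such overlapping pairs cannot be told apart. Meg3, the maternal RNA of the Dlk1 cluster, was at 6.79 log2 on all 3 arrays, 1.37 log2 above background (limma, adjusted p = 4.31e-06), and −0.08 log2 relative to the level of keratin-associated proteins and beta-defensins, where its call was lost. Rian, a maternal RNA that hosts small nucleolar RNAs in the same cluster, had 4.24, 6.11 and 4.68 log2 (5.01 ± 0.98, SD, n = 3) and was not above background (limma, adjusted p = 1). Array 2 lay above its background level for Rian while arrays 1 and 3 lay below theirs.

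The Dlk1 cluster as a whole had 2 of 5 measured members above background, beside 53.0% of all named genes. Rtl1, a retrotransposon-derived gene needed for placental capillaries, had 5.30, 5.64 and 5.64 log2 (5.53 ± 0.20, SD, n = 3) and did not pass the test (limma, adjusted p = 0.236). It passed at the 90th percentile of olfactory receptors (limma, adjusted p = 0.0114) and against vomeronasal receptors (limma, adjusted p = 1.59e-08). The latter p-value rests on nearly 1 spread pooled over genes and not on the spread of Rtl1. RefSeq places Rtl1 across both Meg3 and Rian. Dio3, the deiodinase that inactivates thyroid hormone, was at 4.04 log2 on all 3 arrays and not above background. Dlk1 and Meg3, expressed from opposite alleles and set by 1 control region, were both above it.

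In the Peg10 cluster all 5 measured members were above background, where 53.0% of all named genes were, and Sgce and Calcr lost the call at the level of keratin-associated proteins and beta-defensins. Peg10, a retrotransposon-derived gene needed for the placenta, had 10.92, 10.33 and 10.78 log2 (10.68 ± 0.31, SD, n = 3), 5.26 log2 above background (limma, adjusted p = 1.59e-05). Sgce, the epsilon-sarcoglycan gene that starts beside Peg10 on the other strand, had 7.71, 7.15 and 6.95 log2 (7.27 ± 0.39, SD, n = 3), 1.85 log2 above background (limma, adjusted p = 0.00074). Peg10 and Sgce thus had their highest value on array 1, but their lowest on different arrays. Asb4, an adaptor of a ubiquitin ligase complex, had 9.33, 8.83 and 9.26 log2 (9.14 ± 0.27, SD, n = 3), 3.72 log2 above background (limma, adjusted p = 3.16e-05). Ppp1r9a, the actin-binding protein neurabin, was at 7.56 log2 on all 3 arrays and 2.15 log2 above background, and Calcr is given above. At the level where its call was lost Sgce lay 0.40 log2 above background (limma, adjusted p = 0.114).

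The Peg3 cluster had 1 of 3 members above background, beside 53.0% of all named genes. Peg3, a zinc finger protein that acts on growth and maternal behaviour, had 9.29, 9.22 and 8.94 log2 (9.15 ± 0.18, SD, n = 3), 3.73 log2 above background (limma, adjusted p = 7.67e-06). Usp29, a ubiquitin-specific protease gene that starts from the same promoter on the other strand and from the same allele, was at 4.50 log2 on all 3 arrays, −0.92 log2 relative to background and not called. The 263 bases common to their windows, printed above, therefore lay between a gene with signal in every bud and one without. Zim1, a maternally expressed zinc finger gene next to Peg3, had 4.32, 4.13 and 4.66 log2 (4.37 ± 0.27, SD, n = 3) and was not above background.

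Mest, a paternally expressed member of the alpha/beta hydrolase family, had 10.58, 10.62 and 11.00 log2 (10.73 ± 0.23, SD, n = 3), 5.32 log2 above background (limma, adjusted p = 6.31e-06). Copg2, a subunit of the COPI vesicle coat that RefSeq places overlapping Mest, had 7.72, 8.12 and 7.03 log2 (7.62 ± 0.55, SD, n = 3), 2.20 log2 above background (limma, adjusted p = 0.00101). Both members were above background in all 3 buds, with the highest array differing between them. In the Snrpn cluster, Ndn, the MAGE family gene necdin known from postmitotic neurons, had 8.57, 8.58 and 8.92 log2 (8.69 ± 0.20, SD, n = 3), 3.27 log2 above background (limma, adjusted p = 1.63e-05). Its relative and neighbour Magel2 was at 5.44 log2 on all 3 arrays, 0.02 log2 above the level, and did not pass (limma, adjusted p = 0.323). Magel2 passed at the 90th percentile (limma, adjusted p = 2.74e-05) and without array 2 (limma, adjusted p = 0.0325). It also passed against vomeronasal receptors (limma with the spread pooled over genes, adjusted p = 6.94e-07). Mkrn3, a makorin RING finger gene, was below background at 4.36, 4.65 and 4.36 log2.

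Of the paternally expressed genes outside these clusters, Plagl1, a zinc finger transcription factor that regulates a network of imprinted growth genes, had 8.87, 8.48 and 9.43 log2 (8.93 ± 0.48, SD, n = 3), 3.51 log2 above background (limma, adjusted p = 0.000182). Nnat, a small proteolipid of the endoplasmic reticulum, had 9.07, 8.35 and 8.08 log2 (8.50 ± 0.51, SD, n = 3), 3.08 log2 above background (limma, adjusted p = 0.000309). Impact, a regulator of translation under stress, had 8.63, 8.46 and 8.78 log2 (8.62 ± 0.16, SD, n = 3), 3.20 log2 above background (limma, adjusted p = 1.25e-05). All 3 were above background on every array. Slc38a4, a neutral amino acid transporter, had 9.45, 9.22 and 9.22 log2 (9.29 ± 0.14, SD, n = 3), 3.87 log2 above background (limma, adjusted p = 4.85e-06). Ddc, the aromatic amino acid decarboxylase next to Grb10, at 5.34 log2, and Nap1l5, a nucleosome assembly protein within Herc3, at 5.18 log2, were the same on all 3 arrays and not above background. At the 90th percentile of olfactory receptors both passed (limma, adjusted p = 5.8e-05 for Ddc and 0.000396 for Nap1l5). Both also passed against vomeronasal receptors (limma with the spread pooled over genes, adjusted p = 4.74e-05 for Ddc and 0.00598 for Nap1l5). Dcn, a maternally expressed member that encodes the matrix proteoglycan decorin made by mesenchymal cells, was at 4.26 log2 on all 3 arrays, −1.16 log2 relative to background and not called.

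The share of members above background changed with the level used. At the 99th percentile of olfactory receptors 20 of 35 members were called (57.1%), against 35.3% of all genes, and against keratin-associated proteins and beta-defensins 16 of 35 (45.7%), against 21.1% of all genes. At both lower levels 27 of 35 members were called (77.1%), against 63.7% of all genes for the 90th percentile and 65.0% of all genes for vomeronasal receptors. Members called numbered 22 of 35 when the brightest probe set stood for each gene (53.4% of all genes), with an SD floor (49.4%) and above the level on every array without a model (54.0%), and 22 of the 29 left by a filter on low signal (71.5%). Neither the brightest probe set nor the filter could change the value of a called member, which had 1 probe set of its symbol alone. They numbered 21 without array 1 (48.5% of all genes), 23 without array 2 (52.8%) and 21 without array 3 (48.8%). The 16 members called under every alternative tried were Igf2, Airn, Peg3, Peg10, Mest, Nnat, Ndn, Plagl1, Impact and Slc38a4 of the paternally expressed genes, and Cdkn1c, Igf2r, Ppp1r9a, Asb4, Copg2 and Grb10 of the maternally expressed ones.

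**Figure D2:**
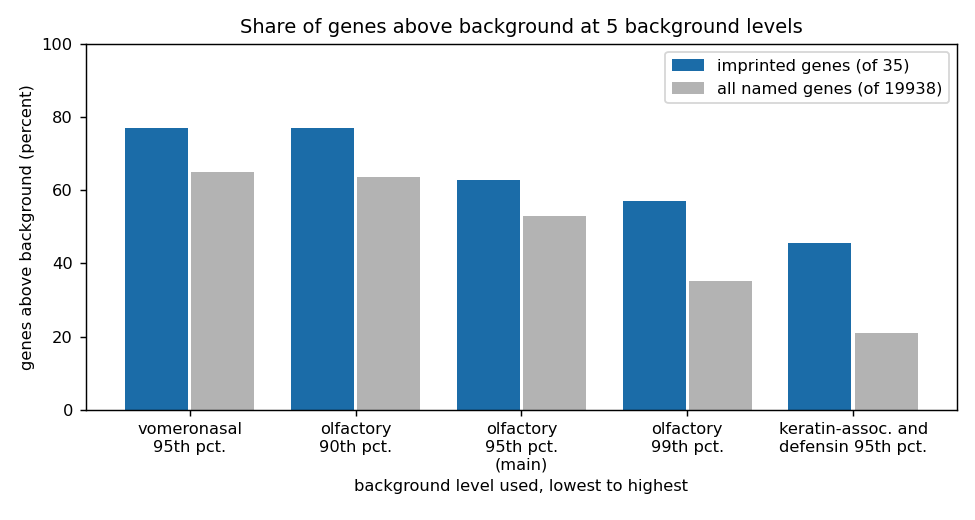
Share of genes above background (percent, vertical axis from 0) at 5 background levels from lowest to highest, for the 35 imprinted genes (blue, left bar of each pair) and all 19938 named genes (grey, right bar). The imprinted share runs from 77.1% to 45.7% and the share of all genes from 65.0% to 21.1%.

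The buds differed by over 1 log2 in 2 of 35 members (5.71%), Rian with a range of 1.88 log2 and Copg2 with 1.09 log2, against 2.37% of all genes. A range over 0.5 log2 was seen in 8 of 35 members (22.9%), against 8.38% of all genes, and among those above background in 6 of 22 (27.3%), against 11.7% of all genes above background. A range over 1 log2 among those above background was found in 1 of 22 (4.55%), against 2.75%. The others of the 8 were Nnat (0.98 log2), Plagl1 (0.95), Sgce (0.76), Peg10 (0.59), Zim1 (0.53) and Asb4 (0.50). With 1 array a bud, these differences have no replicate and no test. Without array 2 no member differed by over 1 log2, and without array 3 only Rian did.

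The members fell into several orders of the arrays. The single highest value lay on array 1 for 9 of 35 members (12.3% of all genes), on array 2 for 4 (12.8%) and on array 3 for 5 (11.5%), and was shared by a pair of arrays for 3 (11.7%). The single lowest lay on array 1 for 4 (10.8%), on array 2 for 6 (10.6%) and on array 3 for 6 (9.9%), and was shared for 5 (17.0%). Peg3, Sgce and Nnat were highest on array 1 and lowest on array 3 (3 of 35 members, against 3.93% of all genes), an order shared by the bud markers Ret (8.69, 8.35 and 8.18 log2), Gfra1 (8.58, 8.22 and 7.85 log2), Pax2 (8.58, 8.15 and 7.92 log2) and Lhx1 (7.76, 6.97 and 6.79 log2). Of the 12 bud markers 9 were highest on array 1, while 7 were lowest on array 3 and 4 on array 2. The summed signal of the 12 on the linear scale was 7709, 6317 and 6028 on arrays 1, 2 and 3. Krt8, whose range of 1.09 log2 was the widest of the 12, makes up much of the difference between these sums. Peg10 and Asb4, in the same cluster, were highest on array 1 and lowest on array 2 (2 of 35, against 3.77% of all genes). This order was also that of the bud markers Krt8 (10.77, 9.67 and 9.90 log2), Hoxb7 (7.18, 6.91 and 6.93 log2) and Emx2 (7.57, 7.45 and 7.51 log2). Plagl1, Impact and Zim1 were highest on array 3 and lowest on array 2 (3 of 35, against 3.0% of all genes), and Mest and Ndn were highest on array 3 and lowest on array 1 (2 of 35, against 3.09% of all genes). Rian was highest on array 2 and lowest on array 1 (1 of 35, against 3.25%), and Copg2 and Slc22a18 highest on array 2 and lowest on array 3 (2 of 35, against 2.56%).

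Endothelial and erythroid genes moved between the same arrays. All 8 endothelial markers were lowest on array 2, with a summed linear signal of 1076, 461 and 1633 on arrays 1, 2 and 3, and 6 of them were highest on array 3. The vascular sialomucin Emcn, with 8.37, 6.73 and 9.55 log2, had the array order of Plagl1 and Impact. Tek (6.69, 5.67 and 7.34 log2) and Kdr (6.32, 5.55 and 7.04 log2) had that order too, whereas Cdh5 (8.22, 5.89 and 8.07 log2) was highest on array 1. The 3 erythroid markers that varied, the embryonic globins Hba-x, Hbb-y and Hbb-bh1, were also lowest on array 2, with a summed linear signal over the 5 measured markers of 904, 231 and 681. The mesenchyme and stroma list varied in 1 of its 13 genes and summed to 538, 538 and 537, with Col1a1, Col1a2, Col3a1 and Twist1, each with 1 value on all 3 arrays, at a mean of 1.02, 0.94, 0.60 and 0.40 log2 above background and the other 9, among them Six2, Gdnf, Foxd1 and Pdgfra, not above it. The part of other cell types in the differences of Plagl1, Impact, Peg10 and Asb4 was not tested, and in sorted samples such as these fewer cells of a type and less RNA per cell cannot be told apart.

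**Figure D3:**
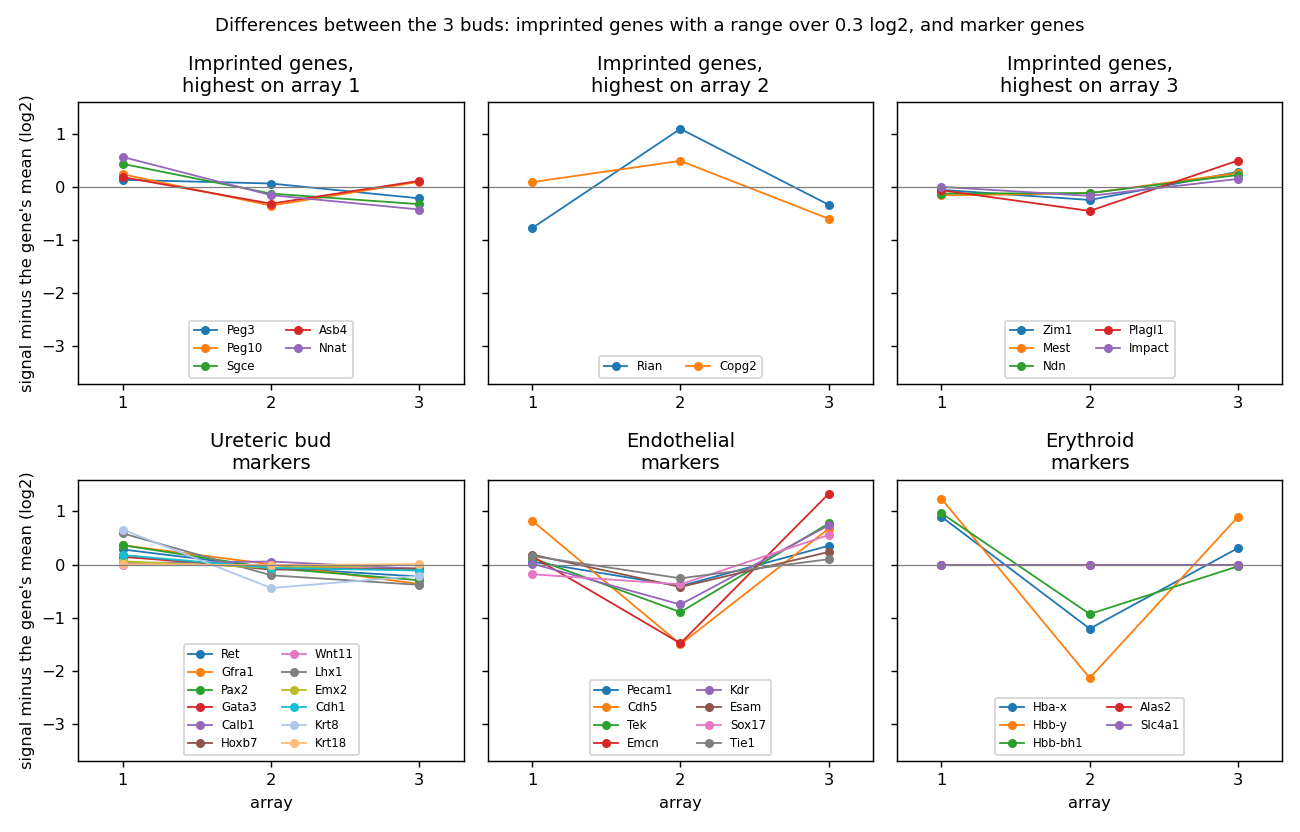
Signal on each array minus the gene's mean over the 3 arrays (log2, vertical axis), for imprinted genes with a range over 0.3 log2 split by the array on which they were highest (upper row) and for ureteric bud, endothelial and erythroid markers (lower row). Lines join the values of 1 gene and the arrays have no order. Peg10, Asb4, Plagl1 and Impact are lowest on array 2, as are all 8 endothelial markers, 3 erythroid markers and 4 of the 12 bud markers, Krt8 among them. Rian and Copg2 peak there, and Rtl1, which has the same value on arrays 2 and 3, is not drawn.

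The promoter windows were compared over the 28 measured members that had 1 or more in the RefSeq table, taking the window richest in CpG for each gene. Imprinted genes above background had a median of 17 CpGs in 300 bases (18 genes, 2 to 48), against 22 over all named genes above background with a window. Imprinted genes not above background also had a median of 17 (10 genes, 0 to 26), against 6 over all named genes not above background. Genes without signal in the bud but with CpG-rich windows included Phlda2 (26 CpGs), Dio3 (25) and Ascl2 (23), and genes with signal but few CpGs included Slc22a18 (2), Airn (3) and Slc38a4 (5). The hexamer was instead counted over every window of a gene, not only the richest. At least 1 TGCCGC match in any window was present in 10 of the 28 members (35.7%), against 13.1% of all genes with a window. The latter include genes not named on the arrays, so the shares by call below are the closer comparison. Genes differ in their number of windows (4 for Igf2, 1 for Plagl1), and this was not taken into account. The 10 were Igf2, Meg3, Zim1, Calcr, Mest, Copg2, Nap1l5, Nnat, Grb10 and Plagl1. By call, a match was present in 8 of 18 members above background (44.4%), against 22.5% of all named genes above background, and in 2 of 10 members not above it (20%), against 10.8% of all named genes not above it. The hexamer itself holds a CpG, so its frequency is tied to CpG number, and these windows are transcription starts and not the control regions themselves. H19, Cdkn1c, Kcnq1, Rtl1, Peg10, Sgce, Impact, Nespas, Peg13 and Dcn had no window in the table.

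**Figure D4:**
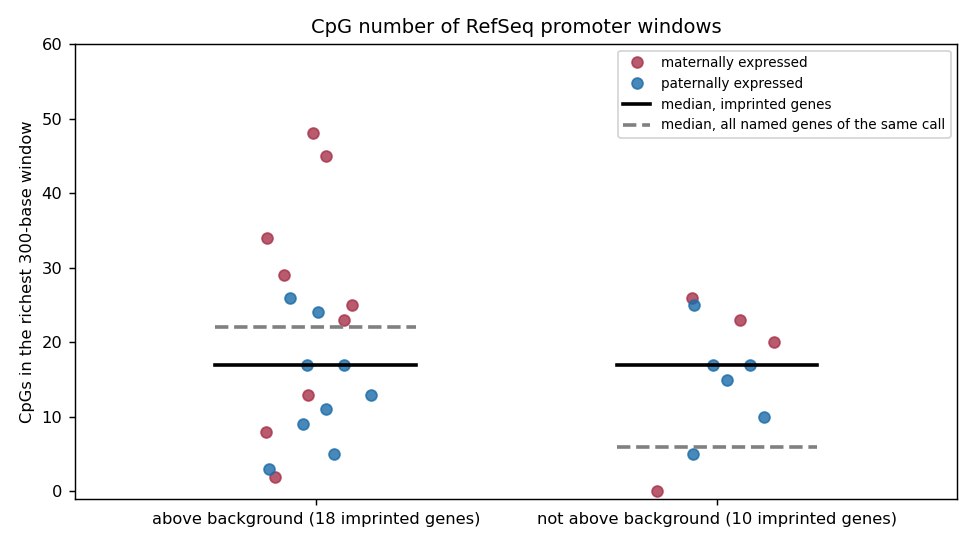
Number of CpGs in the richest 300-base RefSeq promoter window (vertical axis) for 18 imprinted genes above background (left) and 10 not above it (right), coloured by parental class, with the horizontal position within a group arbitrary. Black lines are the medians of the imprinted genes, 17 in both groups, and dashed grey lines those of all named genes of the same call, 22 and 6.

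Of the genes that maintain imprints or act at control regions, 21 of 24 were above background, against 53.0% of all named genes. The count was 18 at the 99th percentile of olfactory receptors, against 35.3% of all genes, and 14 against keratin-associated proteins and beta-defensins, against 21.1% of all genes. Zfp57 was at 7.10 log2 on all 3 arrays and its co-repressor Trim28 had 8.22, 7.98 and 8.10 log2 (8.10 ± 0.12, SD, n = 3). Dnmt1, the maintenance DNA methyltransferase, had 10.10, 9.94 and 9.98 log2, and Uhrf1, which brings it to replicating DNA, 9.22, 8.93 and 8.39 log2. Ctcf, the insulator protein that binds the unmethylated control region between H19 and Igf2, had 8.79, 8.99 and 8.74 log2. The others above background were Zfp445, Dnmt3a, Dnmt3b, Smchd1, Ehmt2, Kdm1b, Tet1, Tet2, Tet3, Eed, Ezh2, Arid4a, Arid4b, Mbd3, Hells and Yy1. Dnmt3l (4.50 log2) and Dppa3 (3.65 log2), which act in germ cells and the early embryo, and Ctcfl (4.88 log2), the testis relative of Ctcf, were not above background and were the same on all 3 arrays.

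Partners of Igf2 were above background in 14 of 17 measured genes, against 53.0% of all named genes, and in 6 of 17 at the level of keratin-associated proteins and beta-defensins, against 21.1% of all genes. The signalling receptor Igf1r had 7.52, 7.08 and 7.07 log2 and the insulin receptor Insr 8.36, 8.32 and 8.10 log2. The RNA-binding proteins Igf2bp1 and Igf2bp3, named for binding Igf2 transcripts, had 8.88, 8.52 and 8.38 log2 and 9.17, 9.06 and 9.13 log2. Receptors and transcript-binding partners of Igf2 thus had signal in every bud. Igf1 (6.38, 6.12 and 6.73 log2), Irs2, Igfbp2, Igfbp3, Igfbp4, Igfbp6, Igfbp7, Pik3ca, Akt1 and Akt2 were the others above background, and Irs1, Igfbp1 and Igfbp5 were not. Igfbp2 (8.53, 7.59 and 7.45 log2) and Igfbp3 (6.32, 6.36 and 7.97 log2), secreted proteins that bind IGFs, differed by over 1 log2 between buds and were highest on different arrays.

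Imprinted genes outside the members gave 22 of 34 measured genes above background, near the 53.0% of all named genes, and 6 of 34 at the level of keratin-associated proteins and beta-defensins, near the 21.1% of all genes there. They were Peg12, Inpp5f, Blcap, Mcts2, H13, Commd1, Zdbf2, Trappc9, Ago2, Casd1, Pon2, Tfpi2, Klf14, Cd81, Th, Ins2, Osbpl5, Nap1l4, Phactr2, Gatm, L3mbtl1 and Jade1. Nnat lies within Blcap, whose signal was 7.31, 7.31 and 7.32 log2 and so did not show the array 1 excess of Nnat. Pon3, a paraoxonase gene near Peg10 that is singled out here after its values were seen, had 4.91, 5.23 and 6.95 log2, with array 3 alone above background, and did not pass the test.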

How the data were processed

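Affymetrix arrays measured transcripts in 1 group of 3 buds, named arrays 1, 2 and 3 by the numbers in the sample titles. The values deposited by the authors are 1 log2 signal per probe set and array, and the submitters' processing notes name Affymetrix Expression Console. The log base was inferred from the values, and no source used here gives the version, background correction, normalization or summary method. Of 35557 probe sets, 21789 had 1 gene symbol in the platform annotation, 1621 had several and 12147 had none listed. Probe sets of 1 gene were averaged, giving 19938 genes. Of all probe sets, 14486 (40.7%) held 1 value on all 3 arrays, within 1e-06 log2. Names were set against RefSeq genes (GRCm38.p6), where 21698 of the probe sets with 1 symbol matched and 0 symbols differed.

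limma (version 3.58.1, R 4.3.3) fitted each gene's mean minus its array's background level, with a one-sided moderated test. In the main fit its prior SD was 0.05 log2 on 1.71 degrees of freedom. Against vomeronasal receptors, under the SD floor and without array 1 or array 3, p-values followed nearly 1 spread pooled over genes. The adjusted p of Igf2 there was 1.31e-284, 2.04e-219, 1.44e-175 and 6.08e-180 (limma), against 7.37e-07 in the main fit. Calls and p-values of these fits are therefore not on the footing of the main fit. The method of the main fit was run on simulated data whose unchanged genes were all centred below the level. That run does not show how often genes near the level are called in error. Nothing says whether the buds came from separate embryos, so p-values measure at most the spread between these samples. For genes with the same value on all 3 arrays they hold no spread of the gene itself. Arrays correlated at 0.989 to 0.991 across genes. Members and lists were chosen with earlier results of these data known, every measured member is named, genes of the other lists are named where above background (and all those not above it where 5 or fewer), and cell type markers where they define the type or range over 1 log2. Alternatives were other background levels, quantile normalization, the probe set of the highest mean, a filter on low signal, an SD floor of 0.10 log2, a rule without a model, and leaving out each array.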

Additional observations from a re-analysis of the deposited data

How the results depend on the processing

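No paired analysis was possible because the arrays form 1 group. Quantile normalization, the SD floor and the rule without a model each kept all tested members on the same side of the threshold, with 22 called. So did the probe set of the highest mean and the filter on the lowest 25% of probe sets (which left 29 members). Neither of the latter could change a called member's value. Each member had 1 probe set of its symbol alone, and the filter took out only probe sets below the level. Leaving out 1 array gave 21 to 23 members, 9 to 10 maternally and 12 to 13 paternally expressed. Against keratin-associated proteins and beta-defensins 6 maternally expressed members, 6 genes of the IGF list and 6 of the other imprinted genes were called, and the members whose mean turned from above to below the level were Tssc4 (−1.20 log2), Slc22a18 (−0.78), Dlk1 (−0.19), Meg3 (−0.08), Calcr (−0.50), Rtl1 (−1.34) and Magel2 (−1.42). At the 99th percentile this held for Tssc4 (−0.39), Rtl1 (−0.54) and Magel2 (−0.62). At the 90th percentile Kcnq1 (0.31), Nap1l5 (0.14) and Ddc (0.30) lay above the level, and with vomeronasal receptors Ascl2 (0.17), Kcnq1 (0.49), Rian (0.14), Nap1l5 (0.31) and Ddc (0.47); of these Kcnq1, Nap1l5 and Ddc were called at both levels, and Ascl2 and Rian at neither. A lower or higher level moves genes by construction.

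Mesenchyme and stroma markers were called in 7 (90th percentile), 2 (99th), 0 (keratin-associated and defensin) and 7 (vomeronasal) genes, endothelial markers in 8, 2, 0 and 8, with 8 under the SD floor and 6 to 8 on leaving out 1 array. Erythroid markers were called in 0 (99th), 0 (keratin-associated and defensin) and 5 (vomeronasal) genes, and leukocyte markers in 1 (99th), 0 (keratin-associated and defensin) and 1 (SD floor), with 1 to 2 on leaving out 1 array. Where limma called 0 markers, an unadjusted p under 0.05 was found for 1 endothelial marker (keratin-associated and defensin), 2 erythroid markers (99th) and 0 of the others. Members differing by over 1 log2 numbered 0 to 2 on leaving out 1 array, and 8 at 0.5 log2. Under the SD floor, against vomeronasal receptors and without array 1 or array 3, limma also gave all genes nearly 1 pooled spread. Changes in those settings therefore cannot be put down to the level or the array alone. Their cause was not tested further. With 3 arrays and repeated values, small differences between buds are not resolved.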
